A study of Mus musculus with 8 samples.

Results

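Chemokines and chemokine receptors were examined in the dorsal skin of UVB-irradiated hairless mice after topical enalapril maleate. The genes were all those whose name in the array files was that of a chemokine ligand (Ccl, Cxcl, Cx3cl1 or Xcl1) or of a receptor (Ccr, Cxcr, Cx3cr1 or Xcr1). This gave 50 genes, 35 ligands and 15 receptors with 66 probes, out of 27742 genes and unnamed probes on the array. A gene with several probes was represented by the brightest of them. Tests were limited to probes that the scanner software marked as well above background on 4 or more of 8 arrays, and 34 ligands and 14 receptors met this.

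The 8 mice were male SKH-1, a hairless strain, 19 weeks old, and the backs of all of them had been irradiated with UVB for 10 weeks. From 1 week after the last irradiation, 4 mice received 1% w/v enalapril maleate in 30 vol % ethanol on the skin, 5 times a week for 2 weeks. The other 4, called vehicle here, received 30 vol % ethanol on the same schedule. The labels give 2 weeks and 4 arrays per group, as separate biological replicates, while the text on the series as a whole speaks of up to 6 weeks and of groups of 6 mice. Skin without UVB was not analysed here. Enalapril blocks angiotensin-converting enzyme, which makes angiotensin II.

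Chemokines are small secreted proteins that bind G protein-coupled receptors on leukocytes and set the direction in which those cells migrate. Most ligands attract a limited set of cells, such as neutrophils, monocytes, effector T cells or eosinophils, while a few guide dendritic cells and lymphocytes through lymphatic vessels and lymphoid tissue. In skin they are made by keratinocytes, fibroblasts, endothelium and resident macrophages, and irradiation and inflammation are known to induce many of them.

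Levels are log2 processed intensities relative to the array's 75th percentile, so that 0 is that percentile. A level describes 1 probe and is not compared with that of another probe. The share of spots well above background was 67.1% to 72.7%, no spot was saturated, and the 75th percentile lay between 821.5 and 1540 intensity units, with its highest values on vehicle 2 and vehicle 3. Keratinocyte markers, which define skin, were present: all 13 listed basal and differentiated markers were well above background on every array, Krt14 with a mean level of 8.15 in enalapril skin and 8.06 in vehicle skin. All enalapril arrays were on slide 2 in scan 2 and all vehicle arrays on slide 1 in scan 1, so treatment cannot be told apart from slide or scan in the values below. Enalapril 4 stood apart: its mean Euclidean distance over all tested genes was 85.7 log2 units to the other enalapril arrays and 80 to the vehicle arrays, whereas each of the other 7 arrays was nearer to its own group. Values without it are given beside the results they change. The samples are whole skin, in which fewer cells of a type and less RNA per cell cannot be told apart.

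Few chemokine genes differed between the groups. Of the 48 tested genes, 2 were lower in enalapril skin and 0 were higher at an adjusted p under 0.05 (limma's moderated test, Benjamini-Hochberg adjustment over all 19098 tested genes). The 2 that fell were Ccl24, an eosinophil attractant, and Ccl21c, a ligand of the lymphoid homing receptor Ccr7. They are 4.17% of the family, against 14.2% of all tested genes called in either direction, 9.85% lower and 4.33% higher. At an unadjusted p under 0.05, limma gave 13 of 48 chemokine genes (27.1%), 2 higher and 11 lower, against 32.1% of all tested genes. The exact two-sided permutation test over the 70 assignments of arrays gave 3 below that level, which were the 3 genes whose groups did not overlap, all lower, with Ccl24 and Ccl21c among them. They make 6.25% of the family, against 22% of all tested genes without overlap (15.4% lower, 6.6% higher). The smallest p this exact test can give is 0.0286.

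**Figure D1:**
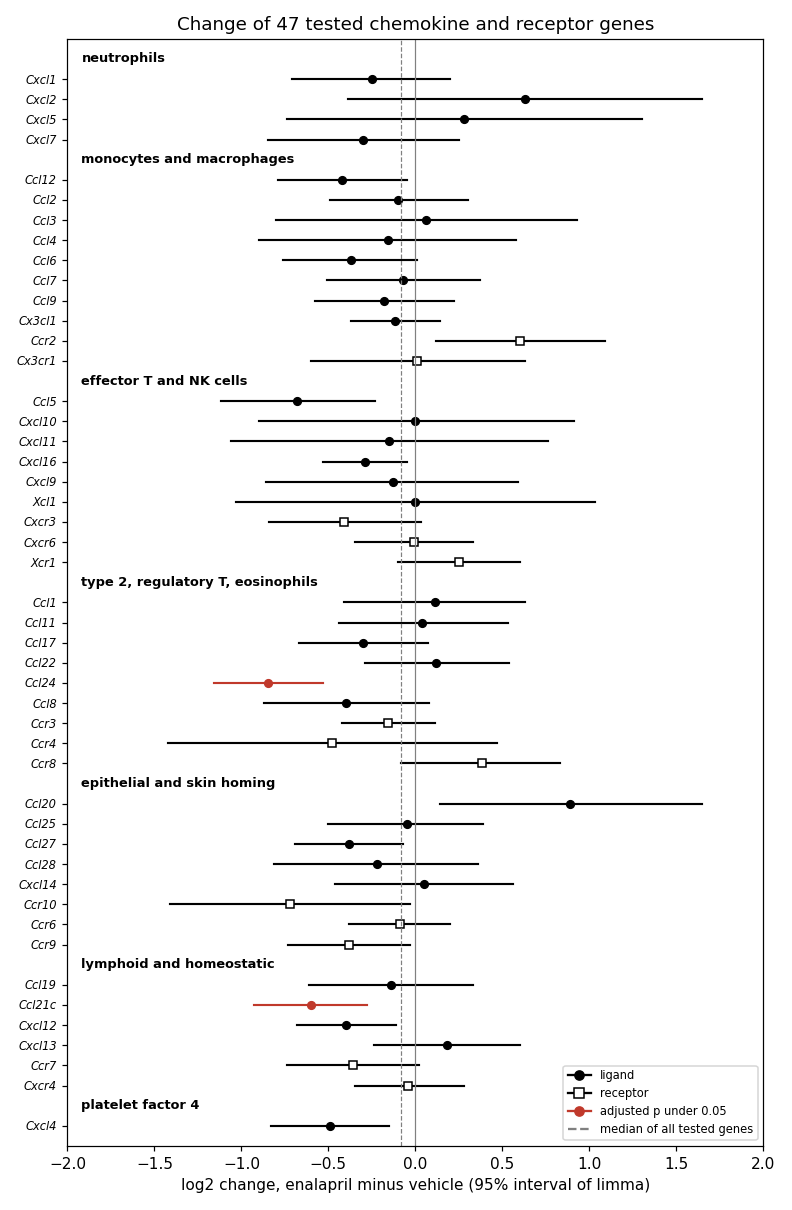
Log2 change (enalapril minus vehicle, x axis) of the 47 tested chemokine and receptor genes reported, with limma's 95% interval, grouped by the cells they attract or mark; filled circles are ligands and open squares receptors. Ccl24 and Ccl21c, in red, passed an adjusted p of 0.05; the dashed line is the median of all tested genes, -0.08.

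The median log2 change was -0.14 over the 48 genes and -0.08 over all tested genes. The change was below 0 for 33 of the 48 (68.8%, against 59.8% of all tested genes) and above 0 for 13. Without enalapril 4, 1 chemokine gene was called higher and 7 lower, where 26.2% of all tested genes were called, 1783 higher (9.34%) and 3230 lower (16.9%). Leaving out enalapril 1, 2 or 3 or vehicle 1, 2 or 4 left 1 lower chemokine gene in each case, where 2.76% to 3.56% of all tested genes were lower. Without enalapril 3 there was also 1 higher, Ccl20, against 1.73% of all tested genes. The fit without vehicle 3 had 3 lower chemokine genes, against 7.48% of all tested genes. In every fit but that without enalapril 4, fewer genes of the whole array were called than the 14.2% with all arrays.

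Among the 9 tested genes of type 2, regulatory T cell and eosinophil attraction, 1 fell and the median change was -0.16. Ccl24, also called eotaxin-2, acts on the receptor Ccr3 of eosinophils and is made largely by macrophages. Its level was 2.29, 2.31, 2.10 and 2.69 in enalapril skin, against 3.16, 3.02, 3.26 and 3.33 in vehicle skin. Every enalapril mouse lay below every vehicle mouse. Ccl24 fell by 0.85 on the log2 scale (SE 0.14, 95% interval -1.16 to -0.53, 1.8-fold lower, adjusted p = 0.0128). The call held in each of the 8 fits that left out 1 array, and a dimmer Ccl24 probe gave -0.81 (adjusted p = 0.0253). It was lost with normexp background correction, under which no gene on the array was called (-1.02, adjusted p = 0.286), with centring on control probes (-0.92, adjusted p = 0.0522) and without both vehicle 2 and vehicle 3 (-0.90, adjusted p = 0.0886). Centring on control probes called 2% of all tested genes, and leaving out both vehicle arrays called 0.0367%, against 14.2% in the main fit.

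The other eotaxin on the array did not follow Ccl24. Ccl11, eotaxin-1, averaged 1.19 ± 0.41 in enalapril skin and 1.15 ± 0.24 in vehicle skin (SD, n = 4 each), a difference of 0.04 with an interval of -0.44 to 0.53. The difference between the 2 eotaxins' changes was not tested. Ccr3, the receptor of both, averaged -2.34 ± 0.15 in enalapril skin and -2.18 ± 0.15 in vehicle skin (interval of the difference -0.42 to 0.11, adjusted p = 0.391). Of 6 listed eosinophil markers 4 were tested and none was called by limma, also none at an unadjusted p under 0.05 and none by the exact test. Their mean level was -2.84 to -2.52 in enalapril skin and -2.89 to -2.50 in vehicle skin, and Epx, the eosinophil peroxidase, was not well above background on any array.

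Ccl8, a monocyte and type 2 T cell attractant that in mouse acts on Ccr8, averaged 6.78 ± 0.21 in enalapril skin and 7.18 ± 0.42 in vehicle skin. The interval of that difference was -0.87 to 0.08 (adjusted p = 0.225), and vehicle 4 was the highest array at 7.77. The Ccr4 ligand Ccl17 changed by -0.30 (interval -0.67 to 0.07), and the other Ccr4 ligand, Ccl22, by 0.12 (-0.29 to 0.54). Ccl1, another ligand of Ccr8, differed by 0.11 (-0.41 to 0.63). The receptors themselves were dim: Ccr4 was well above background on 2 enalapril and 2 vehicle arrays, and Ccr8 on 4 enalapril and 3 vehicle arrays. Neither was called, with differences of -0.48 (-1.42 to 0.47) for Ccr4 and 0.38 (-0.08 to 0.83) for Ccr8.

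Of the 6 tested lymphoid homing and homeostatic genes, 1 was lower, and the median change was -0.25. Ccl21c belongs to a family of near-identical mouse Ccl21 genes that draw Ccr7-bearing dendritic cells and T cells into lymphatic vessels and lymph nodes. Which of the copies the probe reads was not tested, so the source of its signal is uncertain. It read 2.41, 2.20, 2.27 and 2.81 in enalapril skin, against 3.09, 3.11, 2.95 and 2.96 in vehicle skin. The groups did not overlap, but enalapril 4 came within reach of the lowest vehicle mouse. Ccl21c fell by 0.60 on the log2 scale (SE 0.14, interval -0.93 to -0.28, 1.52-fold lower, adjusted p = 0.0285). This call was fragile: it held in 2 of the 8 fits that left out 1 array, without enalapril 4 (adjusted p = 0.00472) or without vehicle 3. In the other 6 the adjusted p was 0.0604 (without vehicle 4) to 0.0766 (without enalapril 2), and the change was -0.63 to -0.53. Fewer genes of the whole array were called in those 6 fits, 4.47% to 5.81%, against 14.2% with all arrays. With the replicate number as a block the adjusted p of Ccl21c was 0.0741, and with quantile normalization 0.0527.

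**Figure D2:**
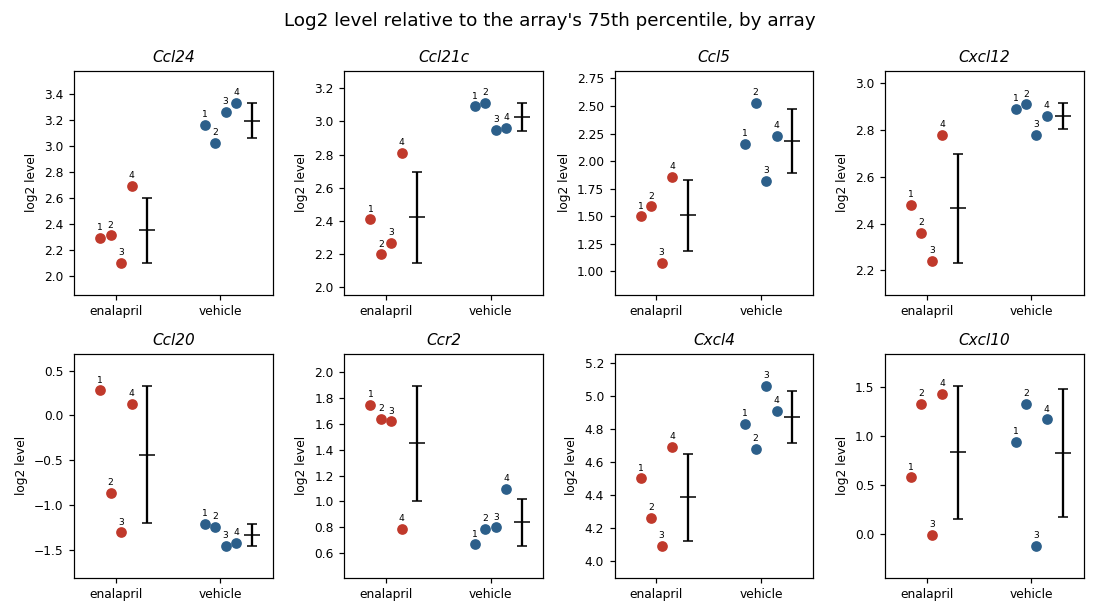
Log2 level of 8 genes on each array, relative to the array's 75th percentile (y axis, a scale of its own in each panel); red points are enalapril mice and blue points vehicle mice, numbered by replicate, and the black bars give the mean and SD of 4. Enalapril and vehicle points do not overlap for Ccl24 and Ccl21c, and enalapril 4 lies apart from the other enalapril mice for Ccr2.

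Ccr7, the receptor of Ccl21 and Ccl19, averaged -1.38 ± 0.22 in enalapril skin and -1.02 ± 0.29 in vehicle skin. The difference was not called (-0.36, interval -0.74 to 0.02, adjusted p = 0.177). Ccl19, its other ligand, averaged 3.71 ± 0.37 in enalapril skin and 3.85 ± 0.27 in vehicle skin (interval -0.61 to 0.33), and a second Ccl19 probe gave the same difference of -0.14. Lymphatic endothelium is the known source of Ccl21 in skin. Of its 6 listed markers, all tested, none was called by limma or by the exact test, while 1 was higher and 1 lower at an unadjusted p under 0.05. The lower one was Lyve1, a hyaluronan receptor of lymphatic vessels and some macrophages, at -0.63 (SE 0.20, adjusted p = 0.0684, and 0.0309 without enalapril 4). The mean level of the list was -2.04 to -1.92 in enalapril skin and -2.14 to -1.89 in vehicle skin, and its part in the Ccl21c result was not tested.

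Cxcl12, the homeostatic ligand of Cxcr4 made by fibroblasts and endothelium, read 2.48, 2.36, 2.24 and 2.78 in enalapril skin, against 2.89, 2.91, 2.78 and 2.86 in vehicle skin. Enalapril 4 met the lowest vehicle mouse, and the other enalapril mice lay below all vehicle mice. The change of -0.40 (SE 0.12, interval -0.68 to -0.11) was not called at an adjusted p of 0.0675, and was called without enalapril 4 (-0.50, adjusted p = 0.01). A second Cxcl12 probe went the other way (0.27, adjusted p = 0.29), so the probes of this gene disagreed. Cxcr4 averaged -0.88 ± 0.11 in enalapril skin and -0.84 ± 0.25 in vehicle skin, with an interval of -0.35 to 0.28. A dimmer Cxcr4 probe gave -0.24 (adjusted p = 0.521). Cxcl13, a B cell attractant, averaged 0.93 ± 0.19 in enalapril skin and 0.75 ± 0.36 in vehicle skin, where vehicle 3 was far below the rest at 0.22.

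The 11 tested monocyte and macrophage genes had a median change of -0.12, and none was called by limma. At an unadjusted p under 0.05, 1 of them was higher (Ccr2) and 2 were lower (Ccl12 among them), and the exact test gave 1. Ccr2 is the receptor that brings monocytes out of the bone marrow into tissue. It read 1.75, 1.64, 1.62 and 0.79 in enalapril skin, against 0.67, 0.79, 0.80 and 1.10 in vehicle skin. Enalapril 1, 2 and 3 lay above all vehicle mice, and enalapril 4 lay inside the vehicle range. Over all arrays the difference was 0.60 (SE 0.21, interval 0.12 to 1.09, adjusted p = 0.093). Without enalapril 4 it was 0.82 and was called (adjusted p = 0.00547). A much dimmer Ccr2 probe gave 0.34 (adjusted p = 0.325).

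The ligands of Ccr2 showed no such difference. Ccl2, the main monocyte attractant, averaged 1.60 ± 0.28 in enalapril skin and 1.69 ± 0.25 in vehicle skin (interval -0.49 to 0.30). Ccl7 averaged 0.98 ± 0.29 in enalapril skin and 1.05 ± 0.32 in vehicle skin (interval -0.51 to 0.37). Ccl12, the third Ccr2 ligand of the mouse, read 1.07, 0.47, 0.59 and 0.80 in enalapril skin, against 1.18, 0.86, 1.18 and 1.39 in vehicle skin. Its change of -0.42 (interval -0.79 to -0.05) ran opposite to that of the receptor and was not called (adjusted p = 0.112).

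The macrophage products Ccl6 and Ccl9 act on Ccr1. Ccl6 averaged 4.53 ± 0.34 in enalapril skin and 4.90 ± 0.13 in vehicle skin (change -0.37, interval -0.76 to 0.01, adjusted p = 0.168). Without enalapril 4 its change was -0.50 and was called (adjusted p = 0.0438). Ccl9 averaged 3.17 ± 0.34 in enalapril skin and 3.35 ± 0.19 in vehicle skin (interval -0.58 to 0.22). Ccr1 itself was well above background on 0 enalapril and 0 vehicle arrays and was not tested.

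Cx3cl1, the membrane-bound chemokine fractalkine, averaged 1.47 ± 0.07 in enalapril skin and 1.59 ± 0.18 in vehicle skin (interval -0.37 to 0.14). A dim second Cx3cl1 probe, well above background on 3 arrays and so not tested, gave -1.25. The receptor of Cx3cl1, Cx3cr1, found on monocytes and Langerhans cells, averaged -2.74 ± 0.62 in enalapril skin and -2.76 ± 0.09 in vehicle skin. The wider spread in enalapril skin came with enalapril 4, which was lowest at -3.64, the same mouse that was lowest for Ccr2. A dimmer Cx3cr1 probe, well above background on 4 arrays, gave -0.35 (adjusted p = 0.567).

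Of 13 listed macrophage and monocyte markers 12 were tested. Itgam, an integrin chain of myeloid cells, rose (0.58, SE 0.13, adjusted p = 0.0248), and C1qc, a complement chain made by tissue macrophages, fell (-0.52, SE 0.12, adjusted p = 0.0255). With each array left out in turn, these calls held in 4 of 8 fits for Itgam and in 1 of 8 for C1qc, the fit without enalapril 4. Without that array 5 markers were lower (C1qa, C1qb, C1qc, Cd163 and Fcgr1) and 1 was higher. In that fit 16.9% of all tested genes were lower and 9.34% higher. The other 7 fits had 0 lower markers, where 2.76% to 7.48% of all tested genes were lower. The median of the list was -0.26, with 5 lower and 2 higher at an unadjusted p under 0.05. Its mean level was 2.90 to 3.26 in enalapril skin and 3.15 to 3.26 in vehicle skin, where the highest enalapril value was that of enalapril 4. Its part in the changes of Ccl24 and the other macrophage products was not tested.

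None of the 9 tested effector T and NK cell genes was called by limma or by the exact test, and 2 (Ccl5 and Cxcl16) were lower at an unadjusted p under 0.05. Ccl5, made by cytotoxic and effector T cells and NK cells, read 1.50, 1.59, 1.08 and 1.86 in enalapril skin, against 2.16, 2.53, 1.82 and 2.23 in vehicle skin. Only the highest enalapril mouse, enalapril 4, and the lowest vehicle mouse, vehicle 3, crossed. The change of -0.68 (SE 0.20, interval -1.12 to -0.23) stood just outside the threshold (adjusted p = 0.0529). It was called without enalapril 4 (-0.80, adjusted p = 0.022) and without vehicle 3 (-0.80, adjusted p = 0.044). The second Ccl5 probe gave -0.55 (adjusted p = 0.0748).

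Cxcl16, a membrane-bound ligand of Cxcr6, averaged 2.18 ± 0.11 in enalapril skin and 2.47 ± 0.14 in vehicle skin. The change of -0.29 (interval -0.53 to -0.05, adjusted p = 0.0961) was not called, but was without enalapril 4 (-0.34, adjusted p = 0.045). The second Cxcl16 probe gave -0.22 (adjusted p = 0.28). Cxcr6, its receptor on tissue T cells, averaged 1.43 ± 0.26 in enalapril skin and 1.44 ± 0.17 in vehicle skin (interval -0.35 to 0.33). Xcr1, which marks cross-presenting dendritic cells, averaged -2.54 ± 0.21 in enalapril skin and -2.79 ± 0.25 in vehicle skin (interval -0.10 to 0.60), and its second probe gave 0.00.

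Cxcl9, Cxcl10 and Cxcl11 are the interferon-induced ligands of Cxcr3, and here they varied between mice of one group rather than between the groups. Cxcl10 read 0.58, 1.33, -0.01 and 1.43 in enalapril skin, against 0.94, 1.33, -0.12 and 1.17 in vehicle skin. Cxcl9 read 1.90, 2.57, 1.23 and 2.67 in enalapril skin, against 2.15, 2.44, 1.79 and 2.53 in vehicle skin. Cxcl11 read -1.12, -0.27, -2.19 and -0.78 in enalapril skin, against -1.20, -0.95, -1.36 and -0.25 in vehicle skin. Each of these ligands was lowest on enalapril 3 within the enalapril group and on vehicle 3 within the vehicle group. The differences between the groups were 0.00 for Cxcl10 (interval -0.90 to 0.91), -0.13 for Cxcl9 (-0.86 to 0.59) and -0.15 for Cxcl11 (-1.06 to 0.76), intervals wide enough to hold a change of 1.5-fold in either direction.

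The upstream sequences of Cxcl9 and Cxcl10 are shown because these neighbouring genes varied together. They are the 250 bases before each start on the minus strand of chromosome 5 of GRCm38.p6, from RefSeq (Cxcl9 chr5:92328080-92328329, Cxcl10 chr5:92348890-92349139); 37 of the 50 genes matched the sequence table. Capitals mark matches to the interferon response core (GAAA, any 2 bases, GAAA) and to a kappaB motif of 10 bases, both searched on both strands, and to the TATA-like word TAAATA, searched on the gene strand.
Cxcl9: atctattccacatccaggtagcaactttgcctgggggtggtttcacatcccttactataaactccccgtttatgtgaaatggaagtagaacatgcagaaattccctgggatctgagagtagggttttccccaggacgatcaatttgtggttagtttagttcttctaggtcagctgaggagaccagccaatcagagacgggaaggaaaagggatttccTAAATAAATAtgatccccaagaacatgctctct
Cxcl10: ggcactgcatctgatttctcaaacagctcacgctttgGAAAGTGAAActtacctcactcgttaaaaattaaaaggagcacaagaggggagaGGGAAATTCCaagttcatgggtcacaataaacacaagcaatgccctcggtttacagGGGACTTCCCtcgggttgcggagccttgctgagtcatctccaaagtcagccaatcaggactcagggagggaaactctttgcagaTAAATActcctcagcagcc

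In the Cxcl10 window the interferon response core stood 213 to 204 bases before the start, kappaB matches at 159 to 150 and at 103 to 94, and TAAATA at 19 to 14. In the Cxcl9 window only TAAATA was found, as 2 overlapping copies between 33 and 24 bases before the start. Among 32851 upstream windows of this length, 2.98% held the interferon response core, 3.9% the kappaB motif and 6.99% TAAATA. A match is a description of the letters, and no match says only that these letters are not in this window.

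Ccl3, Ccl4 and Xcl1, which activated T and NK cells and macrophages release, had the same order of arrays at their low end. This set of genes was chosen after the values were seen. Ccl3 read -0.41, 0.29, -1.24 and -0.52 in enalapril skin, against 0.04, -0.11, -1.38 and -0.68 in vehicle skin. Ccl4 read 0.17, 0.76, -0.72 and 0.23 in enalapril skin, against 0.60, 0.61, -0.36 and 0.22 in vehicle skin. Xcl1, the ligand of Xcr1, read -1.52, -2.05, -3.39 and -2.14 in enalapril skin, against -1.85, -1.65, -3.26 and -2.34 in vehicle skin. All were lowest on enalapril 3 and on vehicle 3 in their groups, and the differences between groups were 0.06 for Ccl3 (interval -0.80 to 0.93), -0.16 for Ccl4 (-0.90 to 0.58) and 0.00 for Xcl1 (-1.03 to 1.03).

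**Figure D3:**
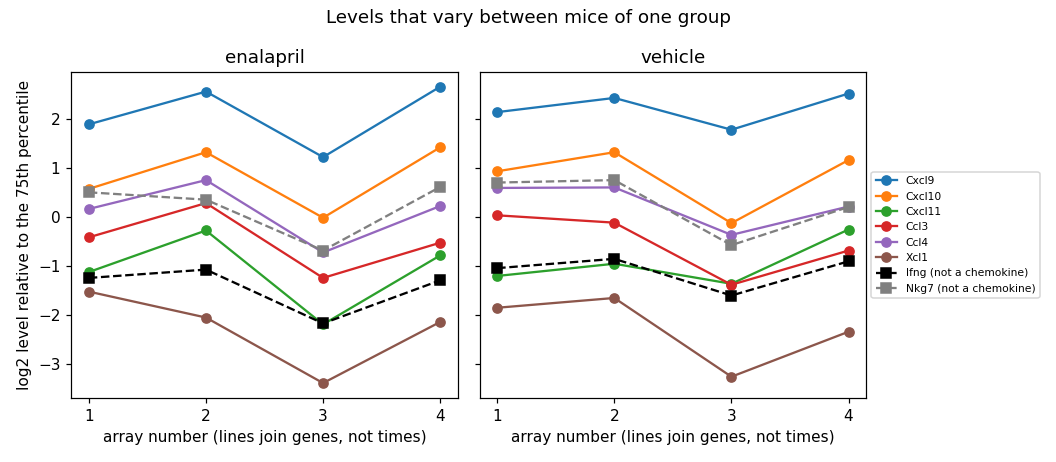
Log2 levels (y axis, relative to the array's 75th percentile) of Cxcl9, Cxcl10, Cxcl11, Ccl3, Ccl4 and Xcl1, with Ifng and Nkg7 dashed, on the 4 enalapril arrays (left) and the 4 vehicle arrays (right); lines join the values of one gene and array numbers have no order. Every line is at its lowest on enalapril 3 in the left panel and on vehicle 3 in the right panel.

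The SD within groups of these 6 genes was 0.53 to 0.76, between the 91.1 and 96.6 percentiles of all tested genes, whose median SD was 0.21. Of the 19 tested inducers of chemokine genes, 7 were lowest of their group on enalapril 3, 7 on vehicle 3 and 4 on both. Ifng, which encodes interferon gamma and is among those 4, was -2.17 on enalapril 3 and -1.60 on vehicle 3, the lowest of each group. Nkg7, a granule protein of cytotoxic cells, was also lowest there, at -0.68 on enalapril 3 and -0.57 on vehicle 3, and is shown because its values follow the pattern. Of the 8 tested NK and cytotoxic markers 7 were lowest on enalapril 3 and 4 on vehicle 3; Gzma, Gzmb, Klrb1c and Prf1 were not lowest on vehicle 3. The mean level of the 8 tested NK and cytotoxic markers was -3.19 on enalapril 3 and -2.35 to -2.71 on the other enalapril arrays, against -2.89 on vehicle 3 and -2.38 to -2.65 on the other vehicle arrays. For the 10 tested T cell markers it was -1.10 on enalapril 3 and -0.80 to -0.58 on the other enalapril arrays, against -0.76 on vehicle 3 and -0.75 to -0.62 on the other vehicle arrays. Vehicle 3 thus did not stand apart for T cell markers, of which 7 were lowest on enalapril 3 and 3 on vehicle 3. The part of these cells in the pattern was not tested.

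Arrays were not equally placed in general. Enalapril 3 was the lowest of its group for 29 of the 48 chemokine genes (60.4%), while it was lowest for 26.9% of all tested genes. Vehicle 3 was the lowest of its group for 19 of the 48 (39.6%), close to its share among all tested genes (37%). The 75th percentile of intensity was lowest on enalapril 3, at 821.5, and at its highest, 1540, on vehicle 3. Cxcr3, the receptor of Cxcl9, Cxcl10 and Cxcl11, read 0.45, 0.22, -0.26 and 0.57 in enalapril skin, against 0.57, 0.95, 0.45 and 0.65 in vehicle skin. It was also lowest on enalapril 3 and on vehicle 3, and its difference was -0.41 (interval -0.84 to 0.03, adjusted p = 0.181).

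**Figure D4:**
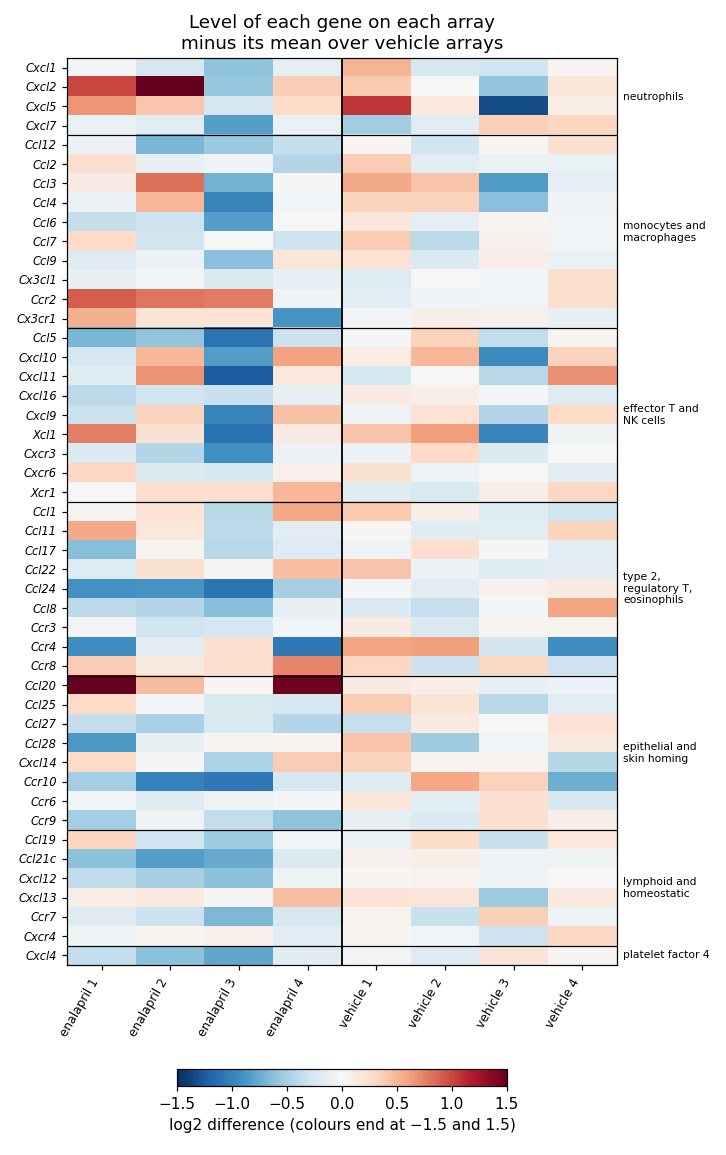
Log2 level of each of the 47 chemokine genes reported (rows, grouped by attracted cell) on each array (columns, enalapril left and vehicle right), minus the gene's mean over the 4 vehicle arrays. The mostly blue column of enalapril 3 shows the array that was lowest of its group for 29 genes. The Ccl24 row is blue on all 4 enalapril arrays, as are other rows, such as those of Ccl21c and Ccl5.

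The 8 tested epithelial and skin-homing genes had a median change of -0.16, and none was called by limma or by the exact test, with 1 higher and 3 lower at an unadjusted p under 0.05. Ccl20, which keratinocytes make under inflammation and which attracts Ccr6-bearing Langerhans cell precursors and Th17 cells, read 0.28, -0.86, -1.30 and 0.13 in enalapril skin, against -1.21, -1.24, -1.45 and -1.42 in vehicle skin. The vehicle mice lay within a narrow band, and all enalapril mice but enalapril 3 lay above it. The difference was 0.89 (SE 0.33, interval 0.14 to 1.65, adjusted p = 0.105), and without enalapril 3 it was 1.18 and called (adjusted p = 0.0492). Ccr6 averaged -0.25 ± 0.07 in enalapril skin and -0.16 ± 0.24 in vehicle skin (interval -0.38 to 0.20).

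Ccl27, the keratinocyte chemokine that draws Ccr10-bearing T cells into skin, read 3.57, 3.44, 3.70 and 3.49 in enalapril skin, against 3.58, 4.06, 3.93 and 4.15 in vehicle skin. Its current name is Ccl27a, and near-identical copies of this gene exist in the mouse, so the source of the signal is uncertain. The change of -0.38 (interval -0.69 to -0.07) was not called (adjusted p = 0.0972). Ccr10 was dim, well above background on 2 enalapril and 3 vehicle arrays, with a change of -0.72 (interval -1.41 to -0.03, adjusted p = 0.144). Ccl28, its second ligand, was also dim, on 3 enalapril and 3 vehicle arrays (change -0.22, interval -0.81 to 0.36).

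Cxcl14, a keratinocyte and fibroblast chemokine, averaged 2.84 ± 0.39 in enalapril skin and 2.79 ± 0.32 in vehicle skin (interval -0.46 to 0.56). Ccl25 averaged -0.75 ± 0.25 in enalapril skin and -0.69 ± 0.36 in vehicle skin (interval -0.50 to 0.39), and its 2 dimmer probes gave -0.31 and 0.29. Ccr9, the receptor of Ccl25 on gut-homing T cells, averaged -2.01 ± 0.24 in enalapril skin and -1.63 ± 0.21 in vehicle skin (change -0.38, interval -0.73 to -0.03, adjusted p = 0.125).

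The 4 tested neutrophil attractants had a median change of 0.01, and none was called by limma, at an unadjusted p under 0.05 or by the exact test. Cxcl1 averaged -3.57 ± 0.25 in enalapril skin and -3.32 ± 0.37 in vehicle skin (interval -0.71 to 0.20). Cxcl2 spread widely in enalapril skin, at -2.31, -1.60, -3.88 and -2.95, against -2.92, -3.31, -3.90 and -3.13 in vehicle skin. Its difference of 0.63 had an interval of -0.39 to 1.65. Cxcl5 spread widely in vehicle skin instead, averaging -3.40 ± 0.38 in enalapril skin and -3.68 ± 0.99 in vehicle skin (interval -0.74 to 1.30).

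Cxcl7, a platelet-derived attractant now named Ppbp, averaged -3.39 ± 0.35 in enalapril skin and -3.09 ± 0.42 in vehicle skin (interval -0.85 to 0.25). Cxcl15 was well above background on 0 enalapril arrays and 1 vehicle array and was not tested. Cxcr2, the receptor of this group, stood in the files under the older name Il8rb and so outside the selection; it read -0.56, -1.09, -1.05 and -3.57 in enalapril skin, against -2.22, -2.53, -1.62 and -2.77 in vehicle skin. Enalapril 1, 2 and 3 lay above all vehicle mice, and enalapril 4 lay below them. Over all arrays it differed by 0.72 (SE 0.60, adjusted p = 0.446), and without enalapril 4 by 1.38, which was called (adjusted p = 0.012). Cxcl3 also stood under an older name, Gm1960 (0.13, SE 0.35, adjusted p = 0.827), as did Cxcr1, Cxcr5 and Cxcl17, which were not well above background on any array. Neutrophil markers, 8 of 11 tested, had a median change of -0.01 with none called by limma or by the exact test and 1 higher at an unadjusted p under 0.05. Their mean level was -1.20 to -0.22 in enalapril skin and -1.37 to -0.50 in vehicle skin.

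Cxcl4, platelet factor 4, now named Pf4, is released by platelets and is also made by tissue macrophages. It read 4.50, 4.26, 4.09 and 4.69 in enalapril skin, against 4.83, 4.68, 5.06 and 4.91 in vehicle skin. Only enalapril 4 and vehicle 2 crossed. The change of -0.49 (SE 0.15, interval -0.83 to -0.15) was not called (adjusted p = 0.062), and was without enalapril 4 (-0.59, adjusted p = 0.0187).

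Receptors as a class had 0 calls among 14 by limma, with 4 at an unadjusted p under 0.05 (Ccr2 higher; Ccr9 and Ccr10 among the lower) and 1 by the exact test. Decoy and atypical chemokine receptors, which bind chemokines without sending cells towards them, were read from a list that also holds older names of the family and chemerin. Of 15 listed genes 11 were tested, with a median change of -0.27; none was called by limma, 3 were lower at an unadjusted p under 0.05 and the exact test gave 1. Without enalapril 4, 2 were called higher (Cxcr2 and Pitpnm3) and 3 lower (Ackr2, Rarres2 and Pf4, which is Cxcl4). Over all tested genes that fit called 9.34% higher and 16.9% lower. Ackr2, a scavenger of inflammatory CC chemokines, read -0.39, -0.04, 0.20 and 0.37 in enalapril skin, against 0.91, 0.81, 0.27 and 1.07 in vehicle skin. Its change was -0.73 (SE 0.21, adjusted p = 0.053), and without enalapril 4 it was called (adjusted p = 0.0271). Ackr4, the scavenger of Ccl19, Ccl21 and Ccl25, averaged -2.56 ± 0.77 in enalapril skin and -1.88 ± 0.34 in vehicle skin (change -0.68, adjusted p = 0.228). Enalapril 4 was the lowest array for Ackr4, at -3.72, and without it the change was -0.29 (adjusted p = 0.257).

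Genes that carry the signal inside the cell included 29 tested of 30 listed, with a median change of -0.01, 1 higher and 2 lower (2 higher and 4 lower without enalapril 4). Over all tested genes 4.33% were higher and 9.85% lower, and without enalapril 4 these shares were 9.34% and 16.9%. Gnai2, the inhibitory G protein subunit that chemokine receptors couple to, rose by 0.75 on the log2 scale (SE 0.15, adjusted p = 0.0202). Rgs2, a regulator that ends G protein signals, fell by 0.49 (SE 0.10, adjusted p = 0.0211). Arrb2, an arrestin that uncouples receptors, fell by 0.56 (SE 0.13, adjusted p = 0.0263). Each of the 3 lost its call in at least 5 of the 8 fits that left out 1 array, with largest adjusted p of 0.0556, 0.0603 and 0.0719 for Gnai2, Rgs2 and Arrb2. Calls over all tested genes also fell in every such fit but that without enalapril 4. Gnai2, Rgs2 and Arrb2 are all expressed far beyond leukocytes.

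Among 19 tested of 20 listed inducers of chemokine genes, 2 were lower (1 without enalapril 4) and the median change was -0.11. Of all tested genes 9.85% were lower, and 16.9% without enalapril 4. Il4, the type 2 cytokine that is known to induce Ccl24 in mouse macrophages, read -2.53, -2.97, -2.95 and -2.82 in enalapril skin, against -2.19, -2.14, -1.90 and -1.77 in vehicle skin. The groups did not overlap, and Il4 fell by 0.82 on the log2 scale (SE 0.14, adjusted p = 0.0139), a call that held in all 8 fits that left out 1 array. The part of Il4 in the lower level of Ccl24 was not tested. Tslp, an epithelial cytokine that promotes type 2 responses, fell by 0.71 (SE 0.19, adjusted p = 0.0403), a call held in 1 of those 8 fits, with a largest adjusted p of 0.1. Il13, which shares a receptor chain with Il4, averaged -4.71 ± 0.42 in enalapril skin and -4.82 ± 0.29 in vehicle skin (adjusted p = 0.784). Tnf averaged -1.77 ± 0.17 in enalapril skin and -1.75 ± 0.18 in vehicle skin (adjusted p = 0.937).

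Some markers of tissues below and beside the dermis also moved with the groups. Of 7 adipocyte markers 5 were lower, where 9.85% of all tested genes were. The mean level of the adipocyte list was 2.49 to 2.91 in enalapril skin and 3.08 to 3.25 in vehicle skin. With 1 array left out, 5 adipocyte markers were lower without enalapril 4, 3 without vehicle 2 or 3, 2 without enalapril 3 or vehicle 4, and 1 without enalapril 1, enalapril 2 or vehicle 1. Of 8 skeletal muscle markers 4 were lower, with mean levels of 4.84 to 4.91 in enalapril skin and 5.04 to 5.83 in vehicle skin. Of the 8, 2 were lower without enalapril 2 or vehicle 1, and 3 to 5 in the other fits without 1 array. Over all tested genes 16.9% were lower without enalapril 4, 7.48% without vehicle 3 and 2.76% to 3.56% without any other single array. Single markers were lower among B cell genes (Cd79b, -0.65, adjusted p = 0.0248), dendritic cell genes (Batf3, -0.46, adjusted p = 0.028) and fibroblast genes (Fbln1, -0.43, adjusted p = 0.0342). Each was called in 2 of the 8 fits without 1 array. The 7 tested B cell genes had a median change of -0.42, with 3 lower at an unadjusted p under 0.05 by limma. The dendritic cell and fibroblast lists had 1 lower each at that level, with medians of -0.10 and 0.04. None of the T cell, NK cell, mast cell, endothelial or keratinocyte markers was called by limma. At an unadjusted p under 0.05 these lists held 1 lower T cell marker, 0 NK, 0 mast cell, 2 lower endothelial, 1 higher basal keratinocyte and 1 lower differentiated keratinocyte marker, and the exact test gave 1 T cell marker and 1 in each keratinocyte list. Without enalapril 4, limma called the endothelial markers Kdr higher (adjusted p = 0.0274) and Cldn5 and Emcn lower (0.0157 and 0.0177), the basal keratinocyte marker Trp63 higher (0.0344) and the differentiated keratinocyte marker Krtdap lower (0.0444). The part of these tissues in the lower levels of Ccl24 and Ccl21c was not tested, nor their part in the values of Cxcl12, which was not called.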

How the data were processed

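RNA of 8 skins was measured on 1-colour (Cy3) Agilent arrays. The spot intensity of the scanner files was made with Agilent Feature Extraction 9.1.3.1, per the file headers (9.1 per the submitters' processing notes), with the background subtracted and a spatial trend removed on every array but no scaling between them, and with a surrogate value for spots not above background. Flags of 0 or 1 deposited beside it (well above background, outlier) are other values and served as filters. The deposited log2 values of the series matrix equalled log2 of that intensity within 5e-09 and were used as an alternative.

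Control spots and outlier-flagged spots were left out, which removed 47 of 41174 probes. Names were updated through a RefSeq gene list of GRCm38.p6, by accession for 22912 probes, by symbol for 6657 and by synonym for 3090; 2024 kept the file's name and 6444 stayed unnamed. From each log2 intensity the 75th percentile of non-control spots on that array was subtracted, with one probe per gene. The test was limma 3.58.1 (in R 4.3.3; files read by data.table, release 1.17.8), lmFit and eBayes with group as the only term, two-sided. Errors are limma's standard errors or the SD over 4 arrays; the number of arrays limits the precision. Exact two-sided permutation tests over 70 assignments checked single genes. The fit was tested on simulated data with known changes.

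The members, their groups and the lists of markers, signalling genes and inducers were chosen with earlier results of these data known. The members were named, except 1 tested receptor gene that is counted but not reported here, and up to 3 genes of each list with the smallest p; Ackr4, Il13, Tnf, Ifng, Nkg7, Gzma, Gzmb, Prf1, Krt14, Epx, Cxcr2, Pitpnm3, C1qa, C1qb and Fcgr1 were named beyond that rule, after their values were seen. Alternatives were other background corrections, scalings, filters, probe rules, variance models, array weights, the replicate block, thresholds and each array left out. Same-numbered mice were not treated as pairs in the main test. The correlation of their deviations was -0.16, 0.05, 0.15 and -0.02 for replicates 1 to 4. The best correlation with a mouse of another number was 0.22, 0.07, -0.02 and 0.15. These correlations alone cannot show whether the mice were paired.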

Additional observations from a re-analysis of the deposited data

Results flagged for a closer look

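In 6 of 96 groups of 4 arrays examined, 1 array lay far from the other 3, a gap that chance gives in about 1 in 20 groups. Ccr2 was 0.79 on enalapril 4, where the nearest other enalapril array was 1.62. Cxcl7 was -3.92 on enalapril 3, with the nearest enalapril array at -3.25. Ccl28, a dim probe, was -6.70 on enalapril 1, with the nearest at -5.95. On the vehicle side, Cxcl13 was 0.22 on vehicle 3, against 0.90 for the nearest vehicle array. Ccl2 was 2.07 on vehicle 1, with the nearest at 1.59, and Ccl22 was -4.81 on vehicle 1, with the nearest at -5.33.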

How the results depend on the processing

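Ccl24 was called under 23 of 26 alternatives, and not with normexp (-1.02, adjusted p = 0.286), E1A control centring or without vehicle 2 and 3, an alternative chosen after seeing the data. Ccl21c was called under 14, and not with normexp (-0.72, adjusted p = 0.305), E1A centring (adjusted p = 0.1), no filter (0.0544), quantile normalization, the replicate block, without vehicle 2 and 3 (0.148) or in 6 of 8 fits without 1 array. Of 1244 values of single genes under alternatives, 1197 stayed on the same side of the threshold, 15 lost it and 32 gained it, and 0 called genes turned direction. The number of chemokine genes called lower (2) was 0 with normexp, with E1A centring and without vehicle 2 and 3, 1 with quantile normalization (5.67% of all genes lower) and with no filter (3.8%), 4 with the series matrix values (9.91%), 5 with an intensity trend and robust estimation (11.4%), 8 at an adjusted p under 0.10 (16.4%), 10 with array weights (20.9%), and 1 to 7 with 1 array left out (7 without enalapril 4, against 16.9% of all genes). With the replicate number as a block it was 1 (1.97%). Over all tested genes the share called lower was 0% with normexp, 1.35% with E1A centring and 0.0157% without vehicle 2 and 3. The number called higher (0) was 1 when probes were averaged per gene, with array weights and at an adjusted p under 0.10, and 0 to 1 with 1 array left out. The median change of the family (-0.14) was -0.51 with the series matrix values, where the median of all genes was -0.45, and -0.24 to -0.09 with 1 array left out. Of genes called on the whole array, 30.5% were higher, 42% with quantile normalization and 5.16% with the series matrix values. Normexp called 0 genes in all (2642 at an unadjusted p under 0.05). It called 1953 once spots with an outlying local background were repaired, 6 of them non-control spots and the rest control spots. In all marker and pathway lists together, 2 genes were higher and 17 lower; these were 5 and 11 with quantile normalization, 0 and 2 with E1A centring, 0 higher with the series matrix values, and 0 to 7 higher and 4 to 30 lower with 1 array left out. The causes were not tested. Slide or scan as a block could not be fitted, since each held 1 group. The dim probes of Ccr4, Ccr8, Ccr10 and Ccl28 limit what their intervals can show.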
